A study of Mus musculus with 59 samples.

Results

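The 10 genes described here encode linker, replacement and core histones. The linker histone genes are Hist1h1c, Hist1h1e, H1f0 and H1fx, and the replacement histone genes are H3f3a, H3f3b and H2afz. The core histone genes Hist1h2bc, Hist1h2be and Hist1h4h lie in the histone cluster on chromosome 13. They were listed as polyadenylated, which was not tested here. The whole set is 10 of the 18088 genes in the table, and all 10 were among the 17891 genes tested. They were chosen by symbol after measured values in these libraries had shown histone genes higher in heterozygous than in wild-type mice. The difference between genotypes was therefore part of how the genes were selected, and it is described here with its error. No p-value is given for it, and how many of the genes pass the threshold is stated only beside the share of all genes, with nothing read from it. The comparisons of treatments and of the sexes did not enter the choice and were tested. The interactions of genotype with treatment were tested as well. They are built from the genotype differences under each treatment, so their p-values are not independent of the choice.

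Polyadenylated RNA of the prefrontal cortex was sequenced at postnatal day 25, in mice of the C57BL/6J strain. By genotype 30 libraries were wild type (WT) and 29 heterozygous (HT) for Naa15. Naa15 anchors the NatA enzyme to the ribosome, where N-termini of new proteins are acetylated. From day 3 to day 24 the pups received lithium (20 libraries), the antidepressant fluoxetine (20 libraries) or vehicle alone (19 libraries) through maternal milk. With 30 female and 29 male libraries this makes 12 groups of 5, apart from 4 HT vehicle males. The nature of the Naa15 allele, the doses and the litters are not given in the labels, so p-values measure the spread between these libraries, which may share a litter. Over all treatments the targeted gene did not separate the genotypes: Naa15 was at 1661 ± 137 normalised reads in WT (SD, n = 30) and 1686 ± 126 in HT (SD, n = 29). Its log2 difference, HT minus WT, was -0.03 ± 0.041 (SE) under vehicle and -0.03 ± 0.04 under lithium. Under fluoxetine it was 0.12 ± 0.04, higher in HT (limma, adjusted p = 0.0149, beside 33.3% of all genes under 0.05). These gene-level values therefore do not check the genotype labels. Libraries held 24.99 to 32.87 M reads. All 20 libraries of lithium-treated mice, together with those of the 5 HT females given fluoxetine, stood apart from the other 34 on the first principal component (14.4% of the variance), at -31.56 to -14.9 against -2.74 to 27.58. Those 25 libraries also had a higher mitochondrial share of reads (median 7.98% against 5.84%) and a lower slope of gene level on GC content (median -0.161 against 0.107 on the log2 scale per 10 points of GC).

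Most core histone messages are made in S phase and end in a stem-loop in place of a poly(A) tail. Stem-loop binding protein binds that hairpin and directs the cleavage that forms the 3′ end. Replacement histones such as H3.3 and H2A.Z, and the linker histone H1.0, are made throughout the cell cycle from polyadenylated messages and supply chromatin in neurons and other cells that no longer divide. Linker histones bind the nucleosome where DNA enters and leaves it. The libraries were made with a kit that enriches polyadenylated RNA, so messages that end at the stem-loop are expected to be under-represented.

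Sequence divides the genes into 2 sets. The 4 genes of the first set, Hist1h1c, Hist1h1e, Hist1h2be and Hist1h4h, carry the histone stem-loop after the stop codon in their GENCODE M21 transcripts (GRCm38), and the other 6 do not. The hairpins are shown because the genotype difference described below was wider in these 4 genes. Capitals mark the paired stem and lower case the loop, 5′ to 3′ on the messenger strand.
Hist1h1c: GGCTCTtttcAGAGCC
Hist1h1e: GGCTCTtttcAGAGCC
Hist1h2be: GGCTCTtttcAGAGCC
Hist1h4h: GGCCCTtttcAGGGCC
The GENCODE M21 transcripts do not end there. The Hist1h1c transcript (1560 bases, a single exon) runs 840 bases past the hairpin and has the poly(A) signal AATAAA near its end. The Hist1h1e transcript runs 1153 bases past it, the coding transcripts of Hist1h2be 1861 bases and that of Hist1h4h 46 bases. RefSeq ends some of these genes earlier: Hist1h1c at 23739531 against 23740367 in GENCODE, and Hist1h4h at 23531478 against 23531519. On the minus strand Hist1h1e ends at 23621777 in RefSeq and 23620629 in GENCODE, and Hist1h2be at 23583670 in both. Which ends the messages in these libraries had was not tested. The same hairpin motif was found in 16 of the 29 histone genes of the table and in 26 of its 15240 other coding genes.

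The promoters of 3 linker histone genes are shown because Hist1h1c and Hist1h1e differed together between genotypes and H1f0 differed less. The 150 bases before each RefSeq start (GRCm38.p6) are printed 5′ to 3′ on the gene's strand. Capitals mark the CCAAT box, the TATA element TATAAA, the GC box GGGCGG and the H1 box AAACACA. Each was searched on both strands, and a GC box on the opposite strand reads CCGCCC here.
Hist1h1c, chr13:23738657-23738806, plus strand: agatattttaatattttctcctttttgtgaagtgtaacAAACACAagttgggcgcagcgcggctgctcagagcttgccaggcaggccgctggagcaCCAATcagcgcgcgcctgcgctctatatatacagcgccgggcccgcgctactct
Hist1h1e, chr13:23622559-23622708, minus strand: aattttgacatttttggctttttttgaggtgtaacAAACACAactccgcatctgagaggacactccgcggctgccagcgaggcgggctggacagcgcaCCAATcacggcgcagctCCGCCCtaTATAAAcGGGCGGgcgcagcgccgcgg
H1f0, chr15:79028062-79028211, plus strand: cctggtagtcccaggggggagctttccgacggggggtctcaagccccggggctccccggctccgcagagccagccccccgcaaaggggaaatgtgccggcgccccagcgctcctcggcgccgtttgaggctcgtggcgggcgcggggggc
In the 300-base windows that end 50 bases past the start, Hist1h1c held the AAACACA box at -112 and CCAAT at -54, and Hist1h1e held them at -115 and -52, with TATAAA at -27. H1f0 held neither box, only a GGGCGG that spans the start. The RefSeq start of H1f0 (79028212) lies upstream of its start in GENCODE M21 (79028450). The bases just before the GENCODE start lay outside that window and were not searched for these boxes. AAACACA occurs in 7.2% of the 32851 RefSeq promoter windows, CCAAT in 37.4%, TATAAA in 13.6% and GGGCGG in 35.7%. Among the other members with a window, AAACACA was found once more, in H3f3a at -181 on the opposite strand, and TATAAA once more, in H3f3b at -27. RefSeq windows were matched for 9 of the 10 genes.

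The genes differed widely in level, which can be compared between genes only per length. The length used was that of all exons of a gene, merged over its transcripts. It was 1776 bases for H2afz, 3504 for H3f3a and 4446 for Hist1h2be, whose longest coding transcripts have 1069, 2841 and 2506. Genes with several transcripts would stand higher by the longest one, so the order depends on that choice. As normalised reads per kilobase of merged exon, averaged over the 59 libraries, H3f3b (1430), H2afz (1410), H1f0 (1240) and H3f3a (1100) were highest. Hist1h2bc (576), H1fx (320) and Hist1h1c (219) followed, and Hist1h4h (29.0), Hist1h2be (15.5) and Hist1h1e (10.7) were lowest. In WT vehicle libraries H3f3b was at 1310 ± 161 (SD, n = 10), H2afz at 1270 ± 92.6, H1f0 at 1120 ± 88.4 and H3f3a at 975 ± 84.0, and each neighbour in that order lay within the summed SDs of the next. So did Hist1h2be at 13.4 ± 3.82 and Hist1h1e at 11.6 ± 5.18. H1f0 had the highest level of the 4 linker histone messages. All 59 libraries had at least 10 normalised reads for 8 of the genes, 55 did for Hist1h1e and 41 for Hist1h4h, so those last genes carry the most counting error.

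**Figure D1:**
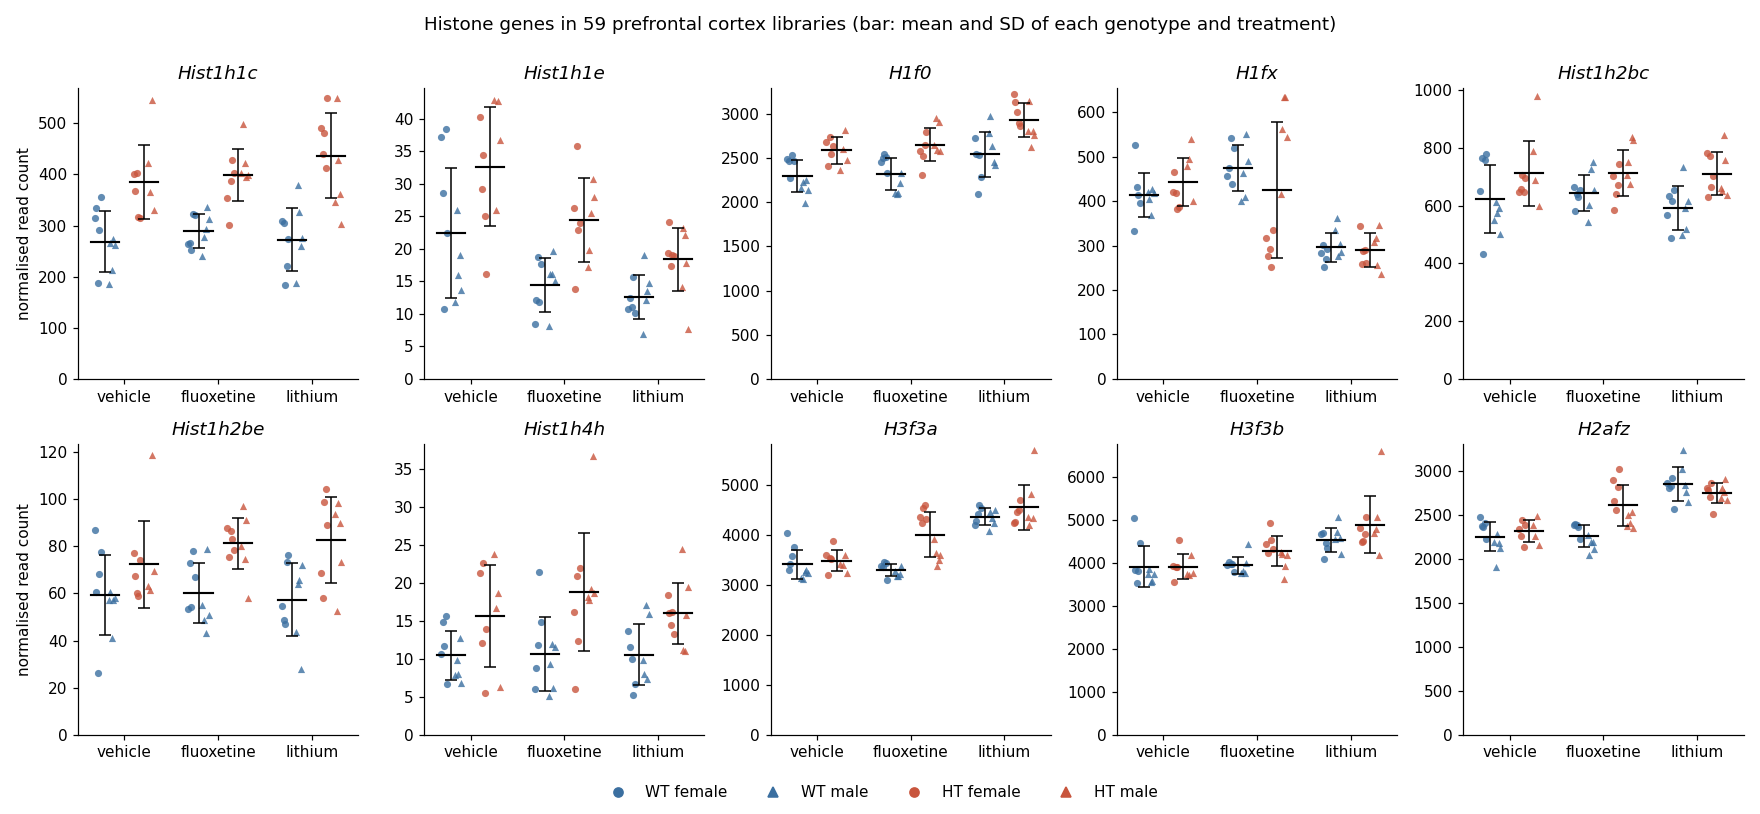
Normalised read count (y axis, from 0) of each histone gene in every library, by treatment (x axis). Blue is WT and red HT, circles are females and triangles males, and each black bar gives the mean and SD of a genotype under a treatment. Hist1h1c is higher in HT than in WT under all 3 treatments, and the lithium libraries of H3f3a and H2afz lie above every vehicle library.

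Hist1h1c (chromosome 13, 23738808 to 23740367, plus strand, a single exon) encodes H1.2, a linker histone of the cluster. In WT it ran from 183.8 to 379.5 normalised reads with a median of 275.6, and in HT from 301.6 to 550.2 with a median of 402.1. The ranges overlapped: 19 of the 29 HT libraries lay above the highest WT library and 19 of the 30 WT libraries lay below the lowest HT library. Under vehicle the WT females were at 315.4, 334.8, 187.0, 290.3 and 356.5 and the WT males at 186.2, 265.7, 213.3, 274.6 and 261.9. The HT vehicle females were at 400.7, 366.9, 402.9, 317.0 and 315.2 and the HT vehicle males at 422.6, 365.6, 545.7 and 330.1. Every one of the 9 HT vehicle libraries was above the mean of the WT vehicle group of its sex. Over all treatments the log2 difference, HT minus WT on the scale of log2(normalised reads + 1), was 0.56 ± 0.066 (SE), 1.48-fold, and 29 of 29 HT libraries exceeded the mean of the WT group of the same treatment and sex. It was 0.54 ± 0.12 under vehicle, 0.46 ± 0.11 under fluoxetine and 0.69 ± 0.11 under lithium.

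Hist1h1e (chromosome 13, 23620629 to 23622558, minus strand, a single exon) encodes H1.4. Its values were low: 6.9 to 38.4 with a mean of 16.5 ± 7.64 in WT (SD, n = 30), and 7.7 to 42.9 with a mean of 24.9 ± 8.89 in HT (SD, n = 29). The groups overlapped over nearly their whole range, and only 3 HT libraries lay above the highest WT library. The log2 difference was 0.61 ± 0.12 (1.53-fold, 26 of 29 HT libraries). In GENCODE M21 the last 496 exonic bases of Hist1h1e are shared with Hist1h2be on the same strand. Reads from that stretch alone do not tell these genes apart, and how the authors' counting divided them is not given in the sources used here.

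H1f0 (chromosome 15, 79028450 to 79030504, plus strand, a single exon) encodes H1.0, the linker histone of cells that have left the cycle. It ran from 1989 to 2969 normalised reads with a median of 2434 in WT, and from 2302 to 3226 with a median of 2684 in HT. Of the WT libraries 12 lay below the lowest HT library, and 4 HT libraries lay above the highest WT library. The log2 difference was 0.19 ± 0.024 (1.14-fold, 26 of 29 HT libraries), a smaller step than in Hist1h1c with a smaller error. WT vehicle females were at 2269 to 2536 and WT vehicle males at 1989 to 2255, so those sexes did not overlap, whereas the HT vehicle females (2405 to 2736) and HT vehicle males (2358 to 2816) did.

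H1fx (chromosome 6, 87980421 to 87981637, minus strand, a single exon) encodes H1.10, a linker histone outside the clusters. It is the richest in GC of the 10 genes (71.3% of exonic bases), and 213 of its bases lie opposite Gm5577. It showed no common shift between genotypes: 251.1 to 551.5 with a median of 407.0 in WT, and 237.1 to 634.0 with a median of 345.2 in HT. The log2 difference was -0.05 ± 0.044 over all treatments. It was 0.11 ± 0.078 under vehicle, -0.23 ± 0.076 under fluoxetine and -0.03 ± 0.076 under lithium. Without the HT fluoxetine female libraries the fluoxetine value turned to 0.26.

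The core histone genes of the cluster differed between genotypes in the same direction as Hist1h1c. Hist1h2bc (chromosome 13, 23684199 to 23692908, plus strand, 2 exons) encodes a histone H2B and has no stem-loop in its annotated transcript. It ran from 433.7 to 780.5 with a median of 615.9 in WT and from 585.3 to 980.0 with a median of 696.8 in HT, a log2 difference of 0.21 ± 0.048 (1.16-fold, 25 of 29 HT libraries). Hist1h2be (chromosome 13, 23583670 to 23621124, minus strand), an H2B gene with the stem-loop, ran from 26.4 to 86.8 (median 57.7) in WT and from 52.5 to 118.8 (median 77.2) in HT. Its log2 difference was 0.43 ± 0.094 (1.35-fold, 25 of 29 HT libraries). Hist1h4h (chromosome 13, 23531050 to 23531519, plus strand, a single exon of 470 bases) encodes histone H4. It was at 5.1 to 21.4 (mean 10.6 ± 3.93, SD, n = 30) in WT and 5.5 to 36.7 (mean 16.8 ± 6.31, SD, n = 29) in HT, a log2 difference of 0.61 ± 0.14 (1.52-fold, 23 of 29 HT libraries). All 3 pairs of ranges overlapped.

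These core histone values are uncertain as values of single genes. The coding sequence of Hist1h2bc is 98.4% identical to that of Hist1h2be and 98.7% to that of Hist1h2bg, and Hist1h4h is 95.8% identical to Hist1h4i. Reads within the coding part can be divided among such copies by the authors' counting. Hist1h1c and Hist1h1e are further apart, at 80.8%, and H3f3a and H3f3b at 76.7%, although the latter pair encodes a single H3.3 protein.

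The replacement histone genes differed least between genotypes. H3f3a (chromosome 1, 180800832 to 180813943, minus strand) and H3f3b (chromosome 11, 116021912 to 116027962, minus strand) encode H3.3, the form of H3 placed in chromatin outside replication. H2afz (chromosome 3, 137864487 to 137866922, plus strand) encodes H2A.Z, a form of H2A found at promoters and exchanged by dedicated remodellers. H3f3a shares 160 bases with the antisense gene H3f3aos; the kit keeps strand, but whether the counting used it is not given in the sources used here. The log2 difference between genotypes was 0.12 ± 0.022 for H3f3a, 0.07 ± 0.031 for H3f3b and 0.07 ± 0.020 for H2afz. Under vehicle the values were 0.03 ± 0.039, 0.00 ± 0.055 and 0.04 ± 0.035. Median values in vehicle libraries were 3309 in WT and 3520 in HT for H3f3a, 3770 and 3889 for H3f3b, and 2258 and 2345 for H2afz, with overlapping ranges in each.

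With the threshold of adjusted p under 0.05 used throughout, the fit put 8 of the 10 genes past it in HT against WT over all treatments, all higher in HT, beside 14.7% of all 17891 genes called in either direction (921 higher, 1716 lower). Under vehicle 1 gene was called (Hist1h1c), beside 0.106% of all genes. Under fluoxetine 7 were called higher and 1 (H1fx) lower, beside 33.3% of all genes, and under lithium 2 higher (Hist1h1c and H1f0), beside 0.386%. The genes were chosen with these comparisons known, so the counts restate the choice and nothing is read from them. Without the 5 HT fluoxetine females the share of all genes was 2.96% over all treatments and 1.4% under fluoxetine. The difference of H3f3a over all treatments was then 0.07 and that of H2afz 0.03. Under fluoxetine, then with males alone, H3f3a moved from 0.28 to 0.15, H3f3b from 0.11 to 0.03, H1f0 from 0.19 to 0.33, Hist1h4h from 0.76 to 1.24 and Hist1h2bc from 0.14 to 0.22. With the GC and length trend removed H3f3a was at 0.16 under fluoxetine, H2afz at 0.13 in place of 0.21, H3f3b at -0.02, Hist1h2bc at -0.01 and H1fx at -0.15. The median log2 difference of the 10 genes over all treatments was 0.20, and the median of all genes was 0.003. In whole tissue, more cells of a type and more RNA per cell cannot be told apart.

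Among the 4 genes with a stem-loop the log2 difference over all treatments ran from 0.43 to 0.61, and among the 6 without it from -0.05 to 0.21. Under vehicle the ranges were 0.32 to 0.61 and 0.00 to 0.21, under lithium 0.49 to 0.69 and -0.05 to 0.27, and under fluoxetine 0.44 to 0.76 and -0.23 to 0.28. The 2 sets did not overlap in any of the 3 treatments, but the set with a stem-loop also holds the genes of low level, and it was named after the values were seen. The 19 other histone genes in the table had overlapping ranges. The 12 of them with a stem-loop had differences from -0.39 to 1.92 with a median of 0.23, and 10 of the 12 were above 0. Both ends had wide errors and were not called: Hist2h2aa1 at -0.39 ± 0.31 (SE) and Hist2h2aa2 at 1.92 ± 0.98. The 7 without it ran from 0.00 to 0.15 with a median of 0.06. Under vehicle the medians were 0.32 with and 0.02 without it, and under lithium 0.28 and 0.04. Under fluoxetine the order was the other way, 0.11 with it (8 of 12 above 0) and 0.15 without. Histone genes as a group led to the choice, so these values are no independent evidence. Of the 19, 4 passed the threshold over all treatments, beside 14.7% of all genes, and nothing is read from that count. All 4 were higher in HT: Hist1h2ac (0.38 ± 0.10), Hist2h4 (0.24 ± 0.080), Hist3h2ba (0.15 ± 0.049) and H2afv (0.11 ± 0.027), the last of which encodes another form of H2A.Z.

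**Figure D2:**
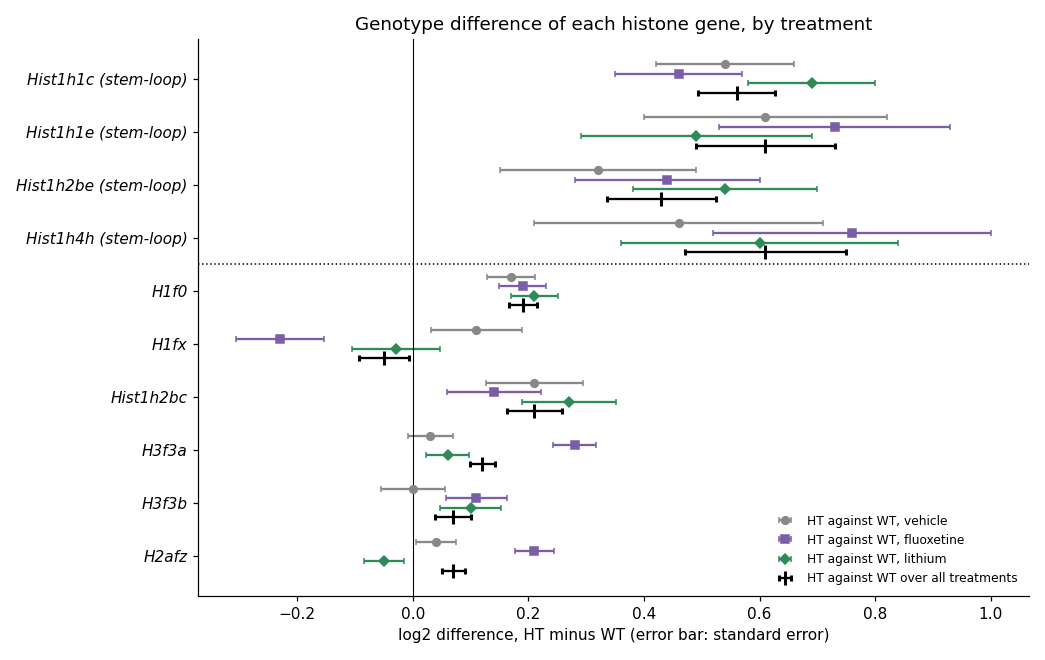
Log2 difference between HT and WT (x axis, on the scale of log2 of normalised reads plus 1) of each gene (y axis), with standard errors, under vehicle, fluoxetine and lithium and over all treatments. The genes above the dotted line have a stem-loop, and their values over all treatments lie between 0.43 and 0.61, those below it between -0.05 and 0.21.

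Marker genes of other cells were examined beside the histone genes, where 14.7% of all genes were called over all treatments. Of 16 markers of dividing cells, 4 were called higher in HT and none lower: Cdk1 (0.44 ± 0.13), Cenpf (0.36 ± 0.11), Ccna2 (0.22 ± 0.074) and Mcm6 (0.08 ± 0.023), with a list median of 0.18. E2f1, at -0.09 ± 0.037, did not pass. Their summed level ran from 2085 to 2753 normalised reads in WT (median 2244) and from 2086 to 2836 in HT (median 2415), and the ranges overlapped. Of 12 markers of immature neurons, 2 were higher (Igfbpl1, 1.05 ± 0.37, and Cd24a, 0.26 ± 0.059) and 1 lower (Tubb3, -0.11 ± 0.032). Their summed level had a median of 33447 in WT and 33091 in HT. The summed level of 6 markers of cortical excitatory neurons had a median of 209124 in WT and 182992 in HT, with 3 of the 6 called lower; no library fell below 144675, so the markers of the labelled tissue were present throughout. Under vehicle none of these 3 lists had a gene called. Other cell types had 0 to 2 markers called lower and none higher. Striatal markers, at 2392 to 14515 in sum, and choroid plexus markers, at 46.5 to 2982, varied between libraries with none called. The part of other cells in the histone values was not tested. Of the 15 genes that process histone messages, 1 differed, the scaffold gene Sympk at -0.08 ± 0.015. Of the 21 deposition genes 2 were higher (Asf1a, 0.09 ± 0.029, and Asf1b, 0.40 ± 0.12), and of the 14 linker histone partners 1 (Hmgn2, 0.11 ± 0.031). The gene of stem-loop binding protein, Slbp, was at -0.03 ± 0.020 and that of the histone transcription coactivator Npat at 0.04 ± 0.025.

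Under lithium, in both genotypes, H3f3a, H3f3b, H2afz and H1f0 rose, Hist1h1e and H1fx fell, and Hist1h1c, Hist1h2bc, Hist1h2be and Hist1h4h did not pass the test. That is 6 of 10 genes in WT, beside 52.9% of all genes called in that comparison, and 6 of 10 in HT, beside 50.6%. The share of members called was near the share of all genes. The median of the 10 differences was 0.00 in WT and 0.17 in HT, and the median of all genes 0.01 and 0.028. The WT and HT comparisons use different mice and different vehicle libraries.

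H3f3a separated fully between lithium and vehicle. WT vehicle libraries ran from 3114 to 4039 with a median of 3309 and WT lithium libraries from 4083 to 4612 with a median of 4382. HT vehicle libraries ran from 3205 to 3889 (median 3520) and HT lithium libraries from 4203 to 5698 (median 4414). All 20 lithium libraries lay above all 19 vehicle libraries. How many of all genes separate as fully was not counted, here or for the genes below. The lithium libraries also stood apart on the first principal component. The log2 difference, lithium minus vehicle, was 0.36 ± 0.037 in WT (limma with Benjamini-Hochberg adjustment, adjusted p = 9.77e-12) and 0.38 ± 0.039 in HT (adjusted p = 4.34e-12), with 10 of 10 lithium libraries above the vehicle mean of their sex in each.

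H2afz separated as fully. WT lithium libraries ran from 2567 to 3240 (median 2833) above WT vehicle libraries at 1912 to 2472 (median 2258). HT lithium libraries ran from 2510 to 2912 (median 2772) above HT vehicle libraries at 2133 to 2488 (median 2345). It rose by 0.34 ± 0.034 in WT (adjusted p = 2.88e-12) and by 0.25 ± 0.035 in HT (adjusted p = 4.14e-08), in 10 of 10 libraries each.

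H3f3b, the other gene of H3.3, rose less evenly. WT vehicle ran from 3532 to 5044 (median 3770) and WT lithium from 4092 to 5056 (median 4556), so that 8 of the 10 vehicle libraries lay below every lithium library and a vehicle female, at 5044, lay near the top of the lithium range. HT vehicle ran from 3560 to 4523 (median 3889) and HT lithium from 4187 to 6599 (median 4725). The log2 difference was 0.22 ± 0.053 in WT (adjusted p = 0.000432, 9 of 10 libraries) and 0.32 ± 0.055 in HT (adjusted p = 2.57e-06, 10 of 10). A single HT lithium male at 6599, which was also the highest library of H3f3a at 5698, set the top of both ranges. Leaving out each library in turn kept H3f3b between 0.27 and 0.35 in HT.

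The linker histone genes went in different directions under lithium. H1f0 rose, from a median of 2262 to 2535 in WT (0.14 ± 0.041, adjusted p = 0.00301, 8 of 10 libraries) and from 2604 to 2879 in HT (0.18 ± 0.042, adjusted p = 0.00034, 10 of 10). WT males were at 2154 ± 105 under vehicle (SD, n = 5) and 2650 ± 230 under lithium, groups that did not overlap, and WT females at 2444 ± 103 and 2433 ± 249, groups that did. Whether the sexes differ in this was not tested.

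H1fx fell. WT vehicle ran from 333.2 to 526.7 (median 416.8) and WT lithium from 251.1 to 361.5 (median 288.7), with 8 of the 10 lithium libraries below every WT vehicle library. HT vehicle ran from 381.4 to 539.2 (median 420.8) and HT lithium from 237.1 to 345.2 (median 288.7), with no overlap. The log2 differences were -0.48 ± 0.076 (adjusted p = 3.86e-07) and -0.62 ± 0.078 (adjusted p = 2.54e-09), in 10 of 10 libraries of each genotype.

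Hist1h1e fell at a low level, from a mean of 22.4 to 12.6 in WT and from 32.6 to 18.4 in HT, with overlapping ranges. The log2 differences were -0.70 ± 0.20 (adjusted p = 0.00279, 9 of 10 libraries) and -0.81 ± 0.21 (adjusted p = 0.00085, 10 of 10). Hist1h1c, the other linker gene with the H1 box in its RefSeq window, moved by 0.02 ± 0.11 in WT (95% interval -0.21 to 0.24) and 0.16 ± 0.12 in HT (-0.07 to 0.40). Hist1h2bc moved by -0.06 ± 0.081 and -0.01 ± 0.084. The 95% interval of Hist1h2be was -0.37 to 0.28 in WT and -0.15 to 0.51 in HT, and that of Hist1h4h -0.50 to 0.46 and -0.37 to 0.62.

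**Figure D3:**
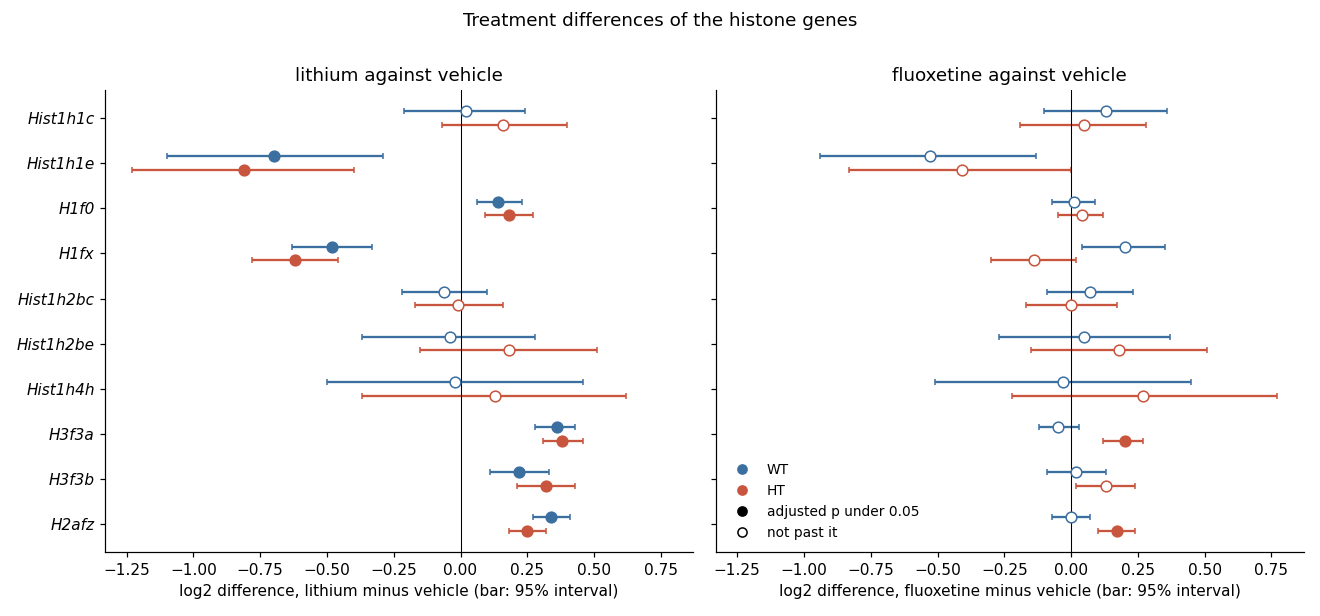
Log2 difference from vehicle (x axis) of each gene (y axis) under lithium, left, and fluoxetine, right, in WT (blue) and HT (red), with 95% intervals; filled points passed an adjusted p of 0.05. Under lithium the same 6 genes are filled in both genotypes; under fluoxetine H3f3a and H2afz are filled in HT and none in WT.

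The lithium comparison coincides with the separation of libraries described at the start. The genes differ in GC content: H3f3a has 43.2% GC and H3f3b 43.4%, below H2afz at 48.4% and H1f0 at 52.1%, while H1fx has 71.3%. The relation of their values to the GC slope across libraries was not tested. With a spline trend on GC content and length removed from each library, 36.5% of all genes were called in WT and 29.8% in HT. H3f3a then kept 0.18 in both WT (adjusted p = 2e-06) and HT (adjusted p = 5.8e-06), H2afz 0.18 and 0.10 and H1f0 0.11 and 0.16. H1fx kept -0.27 and -0.42 and Hist1h1e -0.77 and -0.87, all 5 genes still past the threshold in both genotypes. H3f3b was then at 0.02 (adjusted p = 0.815) and 0.09 (adjusted p = 0.148), no longer called. Hist1h2bc was then called at -0.35 (adjusted p = 0.000318) and -0.29 (adjusted p = 0.00412). Markers of cortical excitatory neurons moved as well: 5 of 6 fell under lithium in each genotype and the remaining marker rose in WT, and their summed level had a median of 219025 under vehicle and 178794 under lithium in WT. Of the 16 markers of dividing cells 6 rose and 2 fell in WT, and 1 rose and 3 fell in HT. The part of cell makeup, RNA quality or library preparation in these differences was not tested.

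**Figure D4:**
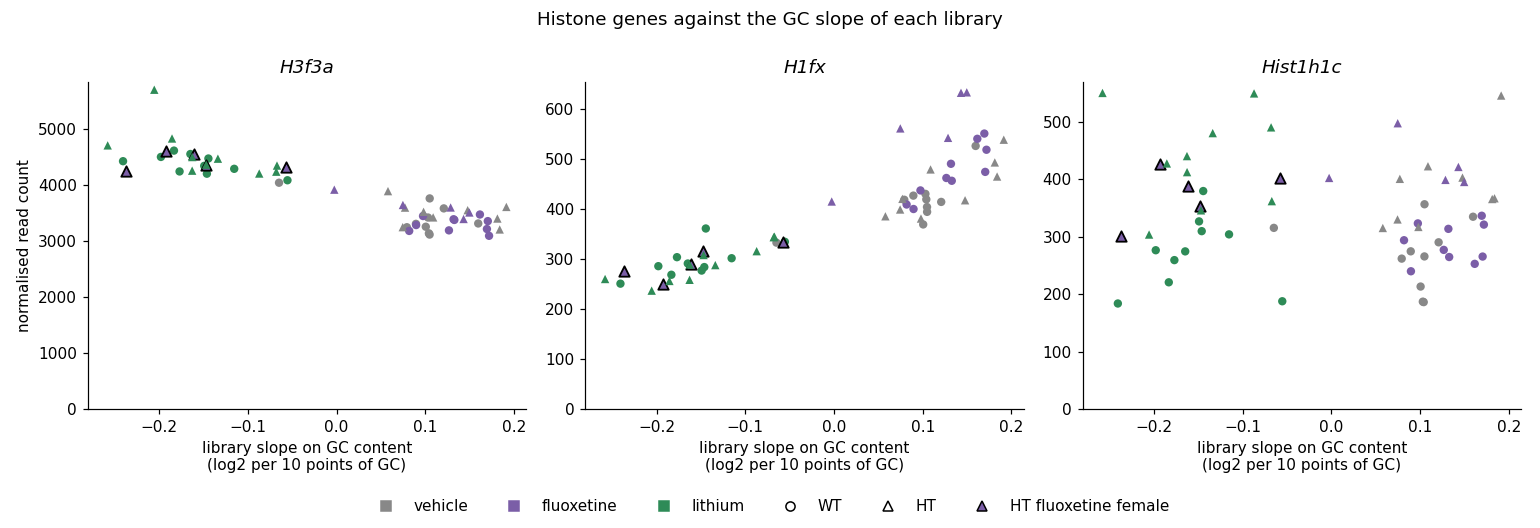
Normalised read count (y axis, from 0) of H3f3a, H1fx and Hist1h1c against the slope of each library's log2 levels on GC content (x axis). Colour gives the treatment, circles are WT and triangles HT, and the 5 HT fluoxetine females are outlined in black; they sit among the lithium libraries for H3f3a (4249 to 4596) and H1fx (251.4 to 334.1).

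Lists of genes that act with histones were read against the 52.9% of all genes called under lithium in WT and 50.6% in HT. Of 21 genes for the deposition and exchange of replacement histones, 5 rose and 10 fell in WT, and 7 rose and 10 fell in HT. The 4 with the smallest p fell. Srcap, the motor of a complex that inserts H2A.Z, was at -0.53 ± 0.045 in WT (adjusted p = 1.21e-14), and its subunit Vps72, which binds H2A.Z, at -0.35 ± 0.040 (adjusted p = 8.14e-11). Cabin1 of the H3.3 chaperone complex was at -0.32 ± 0.036 (adjusted p = 8.63e-11) and Daxx, another H3.3 chaperone, at -0.28 ± 0.036 (adjusted p = 2e-09). Of 14 partners and competitors of linker histones, 6 rose and 2 fell in WT and 8 rose and 2 fell in HT. Among them were Hmgn3 (0.31 ± 0.029, adjusted p = 1.92e-13), Cbx3 (0.29 ± 0.036, adjusted p = 9.41e-10) and Hmgb1 (0.24 ± 0.035, adjusted p = 9.59e-08) in WT, and Hmga1 in HT (-0.20 ± 0.036, adjusted p = 4.64e-06). Of the 15 processing genes, 5 rose and 4 fell in WT and 4 rose and 2 fell in HT, with Sympk at -0.36 ± 0.027 in HT (adjusted p = 6.44e-16), Snrpd3 at 0.24 ± 0.025 in WT (adjusted p = 6.98e-12) and Slbp at 0.10 ± 0.035 in WT (adjusted p = 0.0149). Among the 6 genes of NatA and histone N-terminal acetylation, 3 rose in each genotype, Naa50, Naa40 and Naa15, with Naa50 at 0.20 ± 0.037 in WT (adjusted p = 9.05e-06). Of the 19 other histone genes 5 rose and 2 fell in WT and 5 rose and 1 fell in HT, with Cenpa, the centromeric H3, at 0.64 ± 0.097 (adjusted p = 1.43e-07) in WT and H2afx, the H2A of DNA damage signalling, at -0.43 ± 0.066 (adjusted p = 3.1e-07) in HT.

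Under fluoxetine no gene of the set passed the test in WT and 2 did in HT. In WT 0 of 10 genes passed, beside 1.02% of all genes; edgeR and DESeq2 on the recovered reads also called 0, and 2 had an unadjusted p under 0.05 in limma. Those were Hist1h1e (-0.53 ± 0.20, adjusted p = 0.243, 9 of 10 libraries below the vehicle mean of their sex) and H1fx (0.20 ± 0.076, adjusted p = 0.259, 9 of 10 above it). Hist1h1c was at 0.13 ± 0.11, with a 95% interval of -0.10 to 0.36, and the other 7 lay between -0.05 (H3f3a) and 0.07 (Hist1h2bc). In HT 2 genes passed, beside 31.2% of all genes: H3f3a rose by 0.20 ± 0.039 (adjusted p = 6.61e-05, 9 of 10 libraries) and H2afz by 0.17 ± 0.035 (adjusted p = 0.000158, 10 of 10). The high values were those of the 5 HT fluoxetine females. They were at 4360, 4249, 4545, 4596 and 4322 normalised reads for H3f3a and the 5 HT fluoxetine males at 3915, 3642, 3392, 3508 and 3597, while HT vehicle libraries ran from 3205 to 3889. H2afz was at 2555 to 3019 in those females and at 2348 to 2530 in the males. Without the females H3f3a was at 0.08 (adjusted p = 0.754) and H2afz at 0.07 (adjusted p = 0.759), and 0 of 10 genes were called, where the share of all genes fell from 31.2% to 0.145% as well. The other 8 genes in HT lay between -0.41 (Hist1h1e, adjusted p = 0.129) and 0.27 (Hist1h4h, adjusted p = 0.441), with Hist1h1c at 0.05 ± 0.12 and H1fx at -0.14 ± 0.078. In WT 1 other histone gene rose, Hist1h2bg (1.05 ± 0.27, adjusted p = 0.0404), and no gene of the processing, deposition, linker partner or NatA lists was called. In HT 4 of 15 processing genes rose and 1 fell, 4 of 21 deposition genes rose and 8 fell, 6 of 14 linker histone partners rose and 1 fell, and 2 of 6 NatA genes and 2 of 19 other histone genes rose, beside the same 31.2% of all genes.

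The difference between genotypes itself differed between fluoxetine and vehicle for 3 genes, beside 20.6% of all genes. This test is built from genotype differences, which were known when the genes were chosen, so its p-values are no independent evidence. The interaction was 0.24 ± 0.054 for H3f3a (adjusted p = 0.000783), 0.17 ± 0.049 for H2afz (adjusted p = 0.0113) and -0.34 ± 0.11 for H1fx (adjusted p = 0.0201). H1fx was at 317.1, 275.8, 291.4, 251.4 and 334.1 in HT fluoxetine females and at 415.5, 561.8, 633.1, 634.0 and 542.9 in HT fluoxetine males, 2 groups that did not overlap. WT fluoxetine females were at 437.7 to 541.0 and WT fluoxetine males at 400.5 to 551.5. Without the HT fluoxetine females no interaction was called for any of the 17891 genes, and the values were 0.06, 0.05 and, for H1fx with its sign turned, 0.04. With the GC and length trend removed, where 1.86% of all genes were called, H1fx kept -0.23 (adjusted p = 0.0237), while H3f3a was at 0.10 (adjusted p = 0.217) and H2afz at 0.10 (adjusted p = 0.413). Those 5 libraries share the low GC slope (-0.2368 to -0.0575, against -0.0026 to 0.1496 in HT fluoxetine males) of the lithium libraries, and the part of that in the interaction was not tested. The genotype difference of Hist1h1c, in contrast, had an interaction of -0.08 ± 0.16, with a 95% interval of -0.41 to 0.25. Those of H1f0 (0.03 ± 0.059), H3f3b (0.11 ± 0.076), Hist1h2bc (-0.07 ± 0.12), Hist1h2be (0.13 ± 0.23), Hist1h1e (0.12 ± 0.29) and Hist1h4h (0.30 ± 0.34) did not pass either.

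No gene of the set had a different genotype difference under lithium than under vehicle: 0 of 10 were called with limma, beside 0.0% of all genes. At an unadjusted p under 0.05 limma counted 0 members, edgeR 1 and DESeq2 0, and after adjustment edgeR and DESeq2 called 0 members. For Hist1h1c the interaction was 0.15 ± 0.16 (95% interval -0.18 to 0.47), and the smallest unadjusted p was that of H2afz, at -0.09 ± 0.049 (-0.19 to 0.01). The widest interval was that of Hist1h4h, -0.54 to 0.84.

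Between the sexes 3 genes differed, beside 8.76% of all genes. H3f3a was higher in females by 0.09 ± 0.022 (adjusted p = 0.0133, 22 of 30 female libraries above the male mean of their genotype and treatment), H2afz by 0.06 ± 0.020 (adjusted p = 0.0332, 22 of 30), and H1fx differed by -0.20 ± 0.044, lower in females (adjusted p = 0.00575, 23 of 30). The other 7 genes lay between -0.03 (Hist1h4h) and 0.08 (Hist1h2be), with H1f0 at 0.05 ± 0.024 (adjusted p = 0.215). Without the 5 HT fluoxetine females the values were 0.04, 0.04 and -0.05, and 0 of the 10 were called, beside 0.151% of all genes. With the GC and length trend removed, where 0.537% of all genes were called, H1fx kept -0.13 (adjusted p = 0.00135), and H3f3a and H2afz were at 0.04 and 0.05 and not called. Hist1h1c was at 0.00 ± 0.066, with a 95% interval of -0.13 to 0.14.

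Variation between libraries of the same group set the genes apart in another way. On log2 values less the mean of each group, over 59 libraries, where both genes of a pair come from the same library with its depth and GC slope, H3f3a and H3f3b had a Pearson correlation of 0.735. Hist1h1c correlated with Hist1h2bc at 0.646, with Hist1h1e at 0.582 and with H1f0 at 0.494, and Hist1h2bc with Hist1h2be at 0.560. The coding sequences of that last pair are 98.4% identical, so reads divided between them can affect the value. For H3f3a the value was 0.016 with Hist1h1c, 0.004 with H2afz and -0.552 with H1fx. The genes outside the histones most like Hist1h1c on this measure were 2700081O15Rik (0.569), Ggcx (0.553) and Gm4430 (0.539). For H1f0 they were Stard10 (0.657), Mmp15 (0.640) and Snrnp40 (0.635), and for H3f3b Meis2 (0.858), Zic1 (0.846) and Map3k1 (0.843). These correlations are descriptions of these libraries.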

How the data were processed

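The deposited table holds normalised signal values: per the labels it comes from poly(A)-enriched stranded libraries, and per the submitters' processing notes Salmon 0.11.2, R 3.6.0, DESeq2 1.19.11 and GRCm38 were used, with no step named for each. Every column of the deposited values was a whole multiple of a library constant (100% within 0.01 read), so reads could be recovered; the annotation release is not given in the sources used here. Symbols, positions and GC content came from GENCODE M21 and promoters from RefSeq (GRCm38.p6).

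Limma-trend (limma 3.58.1, R 4.3.3) was fitted to log2(value + 1) with a mean for each of 12 groups (47 residual degrees of freedom). A filter kept the 17891 genes that reached a value of 10 in 4 libraries. Tests were two-sided, with Benjamini-Hochberg adjustment over them and a threshold of 0.05. A 95% interval is the difference and its SE with those degrees of freedom. The members and gene lists were chosen with earlier results of these data known. All 10 members are named in the comparisons described; of each other list up to 4 genes with the smallest p over treatments and interactions were eligible, and the 3 nearest correlates of 3 members; Slbp, Npat and the markers called between genotypes are named outside that rule. Alternatives were edgeR 4.0.16 and DESeq2 1.42.0 on recovered reads, other scalings, constants, filters and variance priors, only the groups compared, a replicate block, GC and length removed, and leaving out libraries. Libraries of a group were not duplicates (chi-square per degree of freedom of at least 4.21). The script was tested on simulated data. Figures: Python 3.11.15, matplotlib 3.10.9.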

Additional observations from a re-analysis of the deposited data

Results flagged for a closer look

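In 120 sets of a gene in a group of 4 or 5 libraries, 8 had a library further from its neighbours than Dixon's 95% limit allows; chance flags about 1 in 20 such sets. High libraries were a HT fluoxetine male for Hist1h1c (497.5, the next at 421.4), a HT fluoxetine male for Hist1h4h (36.7, the next at 19.2), and a HT vehicle male for both Hist1h2be (118.8, the next at 69.4) and H3f3b (4170, the next at 3768). Low libraries were a WT vehicle female for H1f0 (2269, the next at 2459), a WT vehicle male for Hist1h2be (41.1, the next at 57.3), and a WT fluoxetine female for both H3f3b (3781, the next at 3948) and H2afz (2222, the next at 2367). That HT vehicle male also had the highest Hist1h1c (545.7) and Hist1h2bc (980.0) of its group.

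The genotype difference differed between fluoxetine and vehicle, by the interaction test in limma, for H3f3a (0.24, adjusted p = 0.000783), H2afz (0.17, adjusted p = 0.0113) and H1fx (-0.34, adjusted p = 0.0201). None of these was called without the 5 HT fluoxetine female libraries. The interaction is built from genotype differences, so these p-values are not independent of the choice of genes.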

How the results depend on the processing

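Under 13 alternatives that do not leave out a single library, 239 of 255 recomputed values of called treatment, interaction and sex differences kept their direction and side of the threshold. The genotype differences were not judged by the threshold here, and 492 of their 498 values moved by less than 1 SD between replicates. That SD is between single libraries and is wider than the SE of a difference, so the limit is loose. Another variance prior or a fit of only the groups compared cannot move a difference at all. The count therefore says little about how stable these differences are. Of 90 counts of members called, 85 stayed within 1.5 times. DESeq2 put 3 members past the threshold for HT against WT under lithium, beside 1.53% of all genes, and limma 2, beside 0.386%. Nothing is read from these counts. Without the HT fluoxetine female libraries the members called fell to 0 for fluoxetine against vehicle in HT, for genotype by fluoxetine and for females against males. H1fx then turned from -0.34 to 0.04 in that interaction and from -0.23 to 0.26 for HT against WT under fluoxetine, where H1f0 moved to 0.33 and H3f3a to 0.15. With the GC and length trend removed, 1 member was called in the interaction with fluoxetine and 1 between the sexes, H1fx in each; the cause was not tested. The calls of H2afz (0.09) under fluoxetine in HT and of H3f3b (0.02 and 0.09) under lithium were lost there. For HT against WT under fluoxetine H3f3a was at 0.16, H3f3b at -0.02 and H2afz at 0.13 there. EdgeR lost the sex difference of H2afz (adjusted p = 0.0545), as did leaving out a HT vehicle male (0.0523) or a WT vehicle male (0.0502).

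Leaving out each of the 59 libraries gave 2 to 3 members called under fluoxetine in HT, 2 to 3 between the sexes, 6 to 6 under lithium in each genotype, 3 to 3 in the interaction with fluoxetine and 0 to 0 for the others, and a median genotype difference of the members of 0.18 to 0.21. With a replicate block the counts were 0, 2, 6, 6, 3, 0 and 3 and that median 0.20, as in the fit without it. Same-numbered libraries of different groups had a mean residual correlation of 0.0104, others -0.00257, and 16 of 59 libraries correlated best with their own number. The labels do not say whether a number marks a shared litter, and these values cannot settle it. A fit of only the groups compared is the same as the full fit for comparisons over all groups. Low values limit Hist1h1e and Hist1h4h.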
